A study of Mus musculus with 15 samples.

Results

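This comparison sets T cells stimulated under a block of calcineurin directly against T cells stimulated under a block of protein kinase C (PKC), and it rests on 6 of the 15 arrays of the series. The cells were A.E7, a mouse CD4 T helper clone, and both arms received anti-TCR, which crosslinks the T cell receptor (TCR). The arm titled CSA also received cyclosporin A, the drug that blocks the phosphatase calcineurin, and the arm titled PKCi also received a PKC inhibitor that the labels do not name further. For each arm RNA from 2, 4 and 6 h was pooled, and 1 array of each of 3 chip types, named A, B and C and carrying different probe sets, was hybridised with it. The other 9 arrays hold mock treated cells, cells given anti-TCR alone (titled Anergic), and cells given anti-TCR with rapamycin, PD98059 and SB203580 together (titled Combo). Rapamycin blocks mTOR, PD98059 blocks the kinase MEK and SB203580 blocks the kinase p38. The direct pair does not use the anti-TCR array. Doses are not given in the sources used here.

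The TCR opens branches that these drugs separate. Calcium released after receptor engagement activates calcineurin, which strips phosphate from NFAT proteins and lets them enter the nucleus. Diacylglycerol, made in the same step, activates PKC and the Ras activator RasGRP, which lead to NF-kB through the CARMA1 scaffold and to the ERK kinases and AP-1. In T cells, NFAT activity without its partner AP-1 is known to go with anergy, a lasting loss of responsiveness.

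Each arm has 1 array of a chip type, so the data give no replicate check, no SD over cultures and no test, and precision is limited by how few arrays there are. One clone was studied, and the pooling joins 3 time points into 1 value. Values are array intensities in arbitrary units, as deposited. Medians of the 6 arrays lay between 51.25 and 70.2, and 17.4% to 22.8% of their probe sets reached the minimum used below. The floor of a chip type is the median of all values of its 5 arrays (51.1, 69.5 and 55 on A, B and C), and values under it were set to it for the log2 ratio. A gene was measured when the brighter arm reached 4 times the floor (204.4, 278 and 220), and it is called higher in an arm when the values lay at least 2-fold apart. Log2 ratios are CSA over PKCi, so a negative ratio is a higher value with PKCi. A fold is given as "at least" where the dimmer arm did not exceed the floor. The technical spread of a log2 ratio, taken where 1 gene was read on more than 1 chip type, was 0.54 (SD, 825 pairs in 735 genes), so the 2-fold limit of 1 lies less than 2 such SDs from 0.

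The cells carried T cell transcripts in both arms. Cd4 read 616 with CSA and 597.5 with PKCi, and Cd3e, a chain of the TCR complex, read 666 and 619. Of the 11 T cell markers on the chips 9 were measured, and their summed values, unmeasured ones included, were 9330 with CSA and 8749.7 with PKCi. Among the 9 measured 0 were higher with CSA and 1 with PKCi, Cd2 (log2 −1.29). Among 14 markers of B cells and antigen presentation 0 were measured, with sums of 752 and 636. The macrophage and dendritic cell list had 2 of 19 measured, and 11 lay at or below the floor in both arms, with sums of 1719 and 1588. Of 12 erythroid and neutrophil markers 1 was measured, Tfrc, and 7 lay at or below the floor in both arms. Tfrc gave a log2 ratio of 0.26 on the probe set read, but 2.54 on a bright probe set of chip type B. The CD8 T and NK cell list had 4 of 9 measured, all of them lectin receptors, and Cd8a read 3.7 and 3.2. Its sums were 5608.5 and 4391. In RNA from a whole culture, fewer cells making a transcript and less of it per cell cannot be told apart.

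Of 15964 genes on the chips 5656 were measured. With CSA 367 genes were higher, 6.49% of those measured, and with PKCi 406 were higher, 7.18%, which together is 13.7%. Each list count below is to be read beside these shares. Large differences lay mostly on the CSA side: at 4-fold or more 73 genes (1.29%) were higher with CSA against 37 (0.654%) with PKCi, and at 8-fold or more 21 against 1, Ctla4. The median log2 ratio of all measured genes was −0.03, and 2716 of the 5656 lay above 0. Between 4 and 5 times the floor, just inside the minimum, 5.50% of 873 genes were higher with CSA and 6.76% with PKCi. Between 3 and 4 times, just outside it, the shares were 6.27% and 7.68% of 1133 genes. In the brightest class, over 16 times the floor, 9.89% of 1345 genes were higher with CSA and 7.21% with PKCi.

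**Figure D1:**
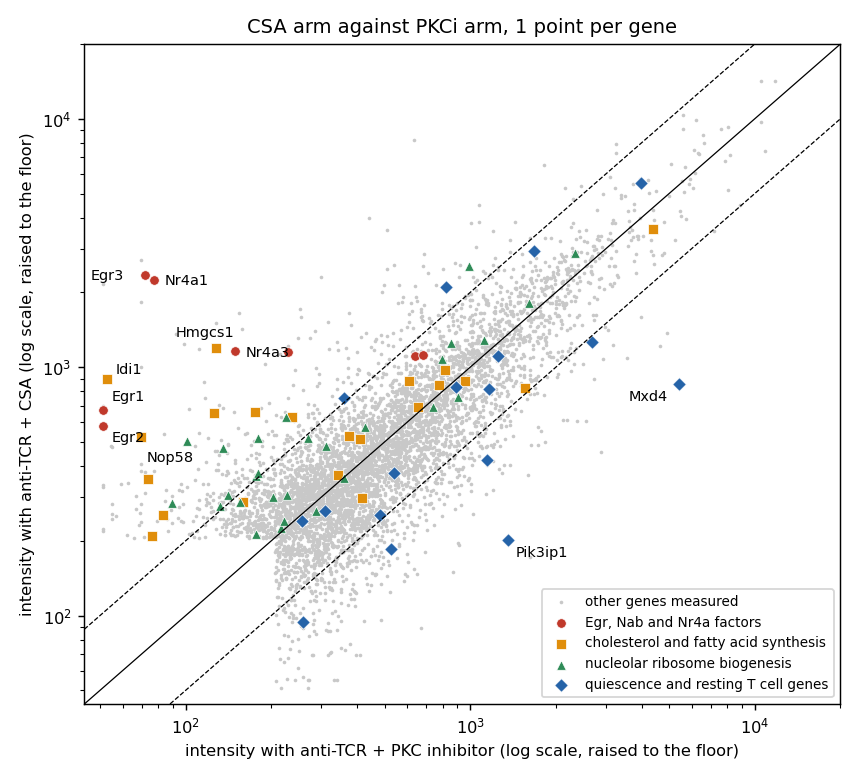
Intensity of each of the 5656 measured genes with anti-TCR + PKC inhibitor (x axis) and with anti-TCR + CSA (y axis), in arbitrary units on log scales, values below the floor raised to it. The solid line marks equal values and the dashed lines 2-fold, and 4 gene lists are coloured: Egr3, Nr4a1, Idi1 and Hmgcs1 lie far above the upper dashed line, and Mxd4 and Pik3ip1 far below the lower one.

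Early transcription factors of the TCR response were among the widest differences. Egr1, Egr2, Egr3, Nab2, Nr4a1 and Nr4a3, all raised by anti-TCR alone, were bright with CSA and at least 5.03-fold dimmer with PKCi on the probe sets read. The Egr factors are zinc finger proteins made within the first hours of stimulation, and Egr2 and Egr3 are linked to anergy. Egr3 read 121 in mock cells, 4354 with anti-TCR alone, 2359 with CSA, 72 with PKCi and 3470.4 with Combo, which puts CSA 32.8-fold above PKCi (log2 5.03). Its further probe set gave 2.47. Egr2 read 43.8, 3325 and 582 in mock, anti-TCR and CSA cells, 41.7 with PKCi and 2116 with Combo, at least 11.4-fold higher with CSA (log2 3.51). Of the 4 stimulated arrays the PKCi one alone lay at or below mock for Egr2 and Egr3. Egr1 read 675 with CSA and 13.4 with PKCi, at least 13.2-fold apart, with 86.9 in mock cells and 345.5 with anti-TCR alone. Nab2, a corepressor that binds Egr proteins, read 1153 against 229 (5.03-fold). Of the 6 Egr and Nab genes measured 4 were higher with CSA and 0 with PKCi, with a median log2 ratio of 2.92 against −0.03 over all genes. The remaining pair, Egr4 (an r-suffixed probe set, log2 0.80) and Nab1 (0.72), lay within 2-fold.

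An Egr2 start region is shown because the gene stood at mock level with PKCi and well above it with CSA. Egr2 has several RefSeq starts. The window shown holds a CArG box, the element bound by serum response factor, in capitals at 73 bases before its start. The window at chr10:67535249-67535548 holds none, and the one at chr10:67537316-67537615 holds a different CArG box. The sequence is from RefSeq (GRCm38.p6, chr10:67537620-67537919, plus strand).
Egr2: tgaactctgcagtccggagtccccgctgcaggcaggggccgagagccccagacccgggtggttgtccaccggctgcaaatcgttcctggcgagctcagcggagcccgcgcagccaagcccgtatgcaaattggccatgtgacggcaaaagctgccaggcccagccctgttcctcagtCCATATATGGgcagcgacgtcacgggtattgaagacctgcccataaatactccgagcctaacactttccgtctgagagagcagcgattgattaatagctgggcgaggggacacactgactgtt

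The Nr4a genes encode orphan nuclear receptors induced by the TCR. Nr4a1 read 64 in mock cells, 3002 with anti-TCR, 2244 with CSA, 77.3 with PKCi and 2205 with Combo, 29.0-fold apart between the arms (log2 4.86), but its further probe set gave a ratio of 0.43. Nr4a3 read 1160.2 with CSA and 149 with PKCi (7.78-fold, log2 2.96), with 4965 under anti-TCR alone. Nr4a2 read 2536 with anti-TCR alone and stayed under the minimum in both arms, at 122 with CSA and 127 with PKCi.

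Other immediate early genes followed the Egr factors in part. Kdm6b, a histone demethylase, had the second largest ratio of all: 7.3 in mock cells, 4085 with anti-TCR, 2701 with CSA, 4.4 with PKCi and 1458 with Combo, at least 38.9-fold. Of the 17 immediate early genes measured 6 were higher with CSA and 0 with PKCi (median 0.83). The others were Csrnp1 (2126 against 640.2), Zfp36, an RNA-binding protein that shortens the life of cytokine messages (207 against 71.3), Btg2 (2111 against 823.5), Ier2 (2763 against 1218) and Klf10 (512 against 228). Zfp36 was read on an s-suffixed probe set.

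The AP-1, Atf and Maf factors, whose dimers bind together with NFAT, split: 3 of 11 measured were higher with CSA and 1 with PKCi (median 0.53). Maff, a small Maf protein, read 1003 with CSA and 34.2 with PKCi, at least 14.4-fold apart, with 472 under anti-TCR alone. Fosb read 502 against 174 and Atf3, on an f-suffixed probe set, 534 against 226.5. Jund, an AP-1 subunit made in resting cells, ran the other way, at 149 with CSA and 867 with PKCi (5.80-fold, log2 −2.54), and the CSA array was the low one of the 5, since mock cells read 780.0, anti-TCR cells 635 and Combo cells 1205. Junb lay just inside 2-fold on an i-suffixed probe set (1384 against 715.5, log2 0.95), and its further bright probe set gave 1.03, just past it. Fosl2 gave 0.53 on the probe set read and 1.40, past 2-fold with CSA, on its further bright one. Fos stayed under the minimum in both arms, at 126 with CSA and 23.5 with PKCi.

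**Figure D2:**
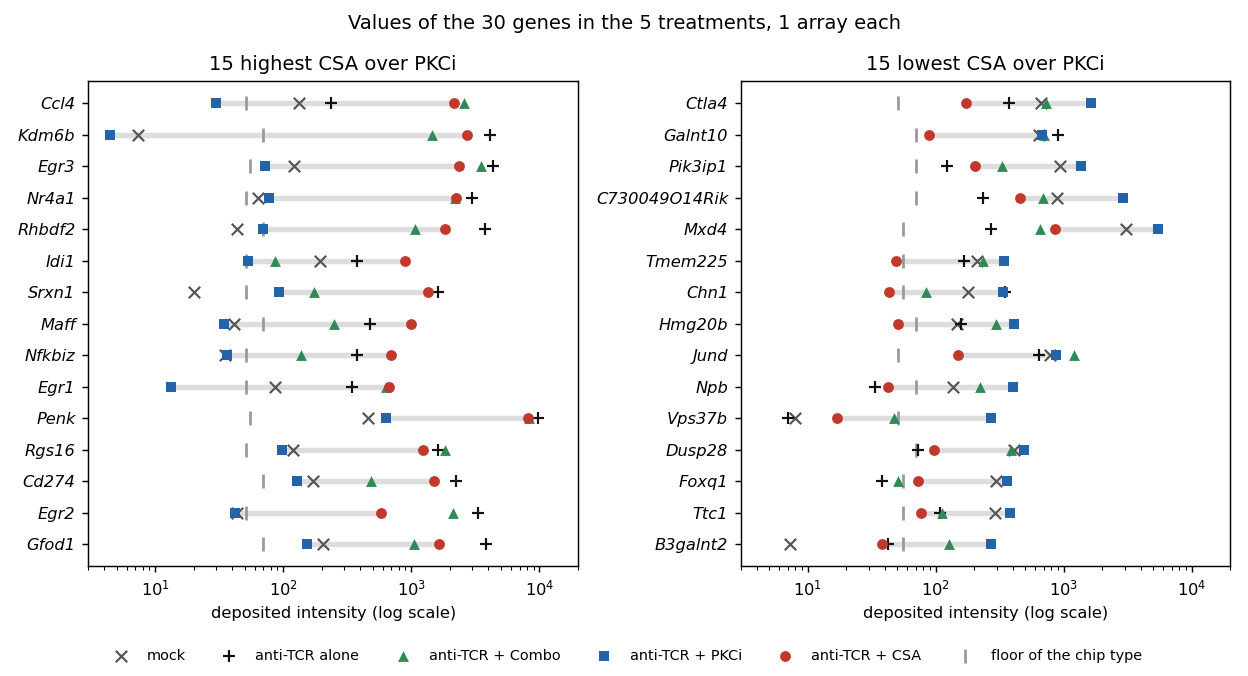
Deposited intensity (x axis, arbitrary units, log scale) of the 15 genes with the highest and the 15 with the lowest ratio of CSA to PKCi in all 5 treatments, 1 array per point, with the grey bar spanning CSA and PKCi and a tick at the chip type's floor. In the left panel the PKCi squares lie at or below mock for most genes and the CSA circles far to their right, as for Egr3 at 72 against 2359; in the right panel the PKCi squares of all 15 genes lie above mock, as for Ctla4 at 1628 against 659.6.

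Of 15 measured genes of the calcineurin and NFAT module itself 2 were higher with CSA and 1 with PKCi (median 0.03), 3 called in all beside 13.7% of all genes. Nfatc2, the NFAT protein held in resting T cells, read 1815 with CSA and 795 with PKCi (2.28-fold), with 423 under anti-TCR alone and 1149.9 in mock cells. Ppp3ca, the catalytic subunit of calcineurin, was just past 2-fold on an i-suffixed probe set (1733 against 856), and its other 2 bright probe sets reached up to 1.18. Dyrk2, a kinase of the family that phosphorylates NFAT, read 166 against 397. Nfatc1, which autoregulates through NFAT, was at 2236 with anti-TCR alone and did not reach the minimum in both arms, at 223 and 277.

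Of 17 measured genes of PKC, diacylglycerol and CARMA signalling 0 were higher with CSA and 2 with PKCi (median 0.04). The shares over all genes were 6.49% and 7.18%. Dgka, the kinase that removes diacylglycerol, read 74 with CSA and 352 with PKCi (4.76-fold, log2 −2.25), against 302 in mock cells and 125 with anti-TCR alone. Rasgrp2, a Ras family activator read on an s-suffixed probe set, read 273.5 against 614, but its other bright probe set gave −0.58, inside 2-fold. PKC genes lay within 2-fold: Prkch read 1446 and 1411 in the arms, Prkcb 427 and 383, and Prkcd 1064 and 1344. Prkcq, the main PKC of the T cell synapse, did not reach the minimum (113 and 177).

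Most genes of the NF-kB system lay within 2-fold. Of 16 measured 3 were higher with CSA and 1 with PKCi (median 0.04), beside 6.49% and 7.18% over all genes. Nfkbiz, an atypical nuclear IkB protein, read 699.9 with CSA and 36.5 with PKCi, at least 13.7-fold apart, with 377.5 under anti-TCR and 35 in mock cells. Nfkbid, a related nuclear IkB, read 2553 against 679.9, and Bcl3, also a nuclear IkB, 356 against 160.0. Tnfaip3, the A20 enzyme that shuts NF-kB signalling off, was instead 4.00-fold higher with PKCi (589 against 147). Nfkbia and Rela lay close, with log2 ratios of −0.11 and 0.20. The Nfkbia probe set is f-suffixed.

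Several feedback brakes on the MAP kinase pathway were higher with CSA. Of 10 measured MAP kinase phosphatase, Sprouty and RasGAP genes 5 were higher with CSA and 1 with PKCi, with a median of 1.05. Errfi1, an inhibitor of growth factor receptors, read 335 with CSA and 49.1 with PKCi (at least 6.55-fold). Dusp6, the phosphatase that acts on ERK, read 218 against 12.1 (at least 4.27-fold), with 634 under anti-TCR and 13.1 in mock cells. Rasa2, Spred1 and Dusp5 were 2.88, 2.75 and 2.17-fold higher with CSA. Rasa3, another RasGAP, read 243 against 511. Spry1 was at 3428 with anti-TCR alone and at 81.3 and 103 in the arms, under the minimum in both. Among 14 measured genes of the Ras and MAP kinase cascade 1 was higher with CSA and 1 with PKCi (median −0.02). Over all genes the shares were 6.49% and 7.18%. The ERK substrate kinase Rps6ka3 read 1649 against 374.5, and Map4k1, a kinase that dampens TCR signals, 183 against 371.

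Secreted proteins of the T helper cell showed some of the widest gaps, though most of these genes were dark in both arms. Of 19 chemokine and chemokine receptor genes on the chips 5 were measured, 3 of them higher with CSA and 1 with PKCi (median 1.55). Ccl4, an inflammatory chemokine, had the highest ratio of all genes. It read 133 in mock cells, 237 with anti-TCR alone, 2171 with CSA, 29.6 with PKCi and 2571 with Combo, at least 42.5-fold. The CSA array was thus far above the anti-TCR array for Ccl4, and the PKCi array below mock. Ccl3, its neighbour in function, read 328 with CSA and 8.4 with PKCi (at least 6.42-fold), with 1363 under anti-TCR and 2749.5 under Combo. Ccr2, the receptor for Ccl2, read 630.1 against 216, and Cxcr4, the receptor for Cxcl12, 54.4 against 207.5. Xcl1 and Ccl1 were at 2472 and 1983 with anti-TCR alone and at or below the floor in both arms.

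Of 15 T helper cytokine genes 4 were measured. Ifng, the main Th1 cytokine, read 151 in mock cells, 3261 with anti-TCR, 538 with CSA, 84.1 with PKCi and 1273 with Combo, 6.40-fold higher with CSA. Tgfb1 read 1776 against 844.5 and Il16 ran opposite, at 102 against 234. Il2, the growth factor of T cells, was at 2.6 or less in all 5 treatments on its probe set. Csf2 stood at 1671.5 with anti-TCR and at 151 and 9.7 in the arms, and Il13 at 1005 and at 71.6 and 7.2, all 4 inhibitor values under the minimum. In the TNF superfamily 1 of 9 measured genes was higher with CSA and 1 with PKCi (median −0.22), beside 6.49% and 7.18% over all genes. Tnf itself read 892 against 341, with 334.5 in mock cells, 133 with anti-TCR alone and 1786 with Combo. The receptor Tnfrsf1b read 296 against 779.5.

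Surface receptors went both ways, and the single largest excess with PKCi was an inhibitory receptor. Of 13 measured costimulatory and inhibitory receptor genes 6 were higher with CSA and 3 with PKCi (median 0.67). Ctla4, which competes with Cd28 for its ligands and restrains T cells, read 659.6 in mock cells, 373 with anti-TCR, 171 with CSA, 1628 with PKCi and 731.5 with Combo, 9.50-fold higher with PKCi (log2 −3.25). The PKCi array was the highest of the 5 for Ctla4 and the CSA array the lowest. Slamf1 read 252 against 793, and Cd2, an adhesion receptor, 440.0 against 1075. On the CSA side stood Cd274, the ligand of the inhibitory receptor PD-1, at 1510.4 against 128 (11.8-fold), with 2229 under anti-TCR and 172 in mock cells. The activation marker Cd69 read 280.3 against 34.8 (at least 4.03-fold) and Il2ra, the high-affinity IL-2 receptor chain, 258 against 68.9. Cd44 (6532.5 against 1812), Pdcd1, which encodes PD-1 (291 against 124), and Il2rb (3299 against 1618) were higher with CSA as well.

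The Ctla4 start region is shown for the gene furthest on the PKCi side. Its window holds the NFAT core TGGAAA on the minus strand, so that the plus strand reads TTTCCA (in capitals), 144 bases before the start. The sequence is from RefSeq (GRCm38.p6, chr1:60908775-60909074, plus strand).
Ctla4: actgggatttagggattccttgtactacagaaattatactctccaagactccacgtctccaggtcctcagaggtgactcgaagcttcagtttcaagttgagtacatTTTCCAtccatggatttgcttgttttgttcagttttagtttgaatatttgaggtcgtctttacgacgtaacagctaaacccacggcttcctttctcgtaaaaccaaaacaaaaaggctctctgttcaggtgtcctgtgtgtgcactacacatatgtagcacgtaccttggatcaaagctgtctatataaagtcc

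Of 23 measured genes tied to anergy and negative regulation 4 were higher with CSA and 2 with PKCi (median 0.26). The shares over all genes were 6.49% and 7.18%. The list shares Egr2 and Egr3 with the Egr factors. Rgs16, which ends signals from G protein-coupled receptors, read 1244 with CSA and 98.6 with PKCi (12.6-fold), and its further probe set gave 4.04. Dok2, an adaptor that restrains Ras, read 2314 against 913 on an f-suffixed probe set, with a second one at 0.96. Sla2, an adaptor that lowers TCR signals, was at 254 against 603, and Dgka was described above. The ubiquitin ligases of anergy lay within 2-fold: Cblb read 500.5 with CSA and 509.5 with PKCi, both below 1344 with anti-TCR alone, Itch 297 and 333, and Rnf128, also called Grail, 219.5 and 332. Among 18 measured genes of the TCR complex and its first signalling steps 0 were called either way (median 0.10). Lag3 was at 644 with anti-TCR alone and under the minimum in both arms (91.7 and 122).

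Among effector genes the calls lay on the CSA side. Of 11 measured granzyme, perforin and NK receptor genes 4 were higher with CSA and 0 with PKCi (median 0.90). Gzmb, the killing protease granzyme B, read 455 in mock cells, 2021 with anti-TCR, 2141 with CSA, 499 with PKCi and 477 with Combo (4.29-fold between the arms). The PKCi and Combo arrays stood near mock for Gzmb and the CSA array near anti-TCR alone. The summed CD8 T and NK cell markers ran the same way (5608.5 against 4391), though 0 of the 4 measured were called. These markers overlap with the list in lectin receptors, and their part in these values was not tested. Srgn, the proteoglycan that packs granzymes, read 639 against 207, Gzma (s-suffixed) 1787 against 689.7, and Nkg7 (g-suffixed) 7919 against 3249. In 16 measured adhesion and homing genes 2 were higher with CSA and 1 with PKCi (median 0.15), beside 6.49% and 7.18% over all genes, with the integrin chain Itgb2 at 1344 against 486 and the lymphocyte lipid receptor S1pr4 at 145 against 599.6, 4.14-fold.

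Genes of cytokine reception were called in both directions. Of 23 measured receptor, Jak, Stat and Socs genes 3 were higher with CSA and 4 with PKCi (median −0.35), beside 6.49% and 7.18% over all genes. Il4ra, a receptor chain for IL-4 and IL-13, read 71 with CSA and 324 with PKCi (4.57-fold), Socs2, a suppressor of cytokine signals, 485.5 against 1728.5, Stat5b 374 against 1297, and Ifngr1, the ligand-binding chain of the interferon gamma receptor, 418 against 1203. Ifngr1 and Stat5b stood higher with PKCi than in any of the other 4 treatments, mock cells at 551 and 636 included. Cish, a Socs family member, ran the other way (718 against 196.5). Of 18 measured interferon response genes 1 was higher with CSA and 5 with PKCi (median −0.49). Those 5 were Tapbp, Tap1, Gbp7, Psmb9 and Irf1, at 3.33, 2.38, 2.17, 2.11 and 2.06-fold. Tap1, the peptide transporter, read 480.5 against 1143, near the 971 of mock cells. For Tapbp the 3 bright probe sets disagreed, from −1.73 to 0.26. Irf8, a transcription factor of the same list, was 10.6-fold higher with CSA (1181 against 112), with 1404 under anti-TCR and 148 in mock cells.

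Genes of resting T cells and brakes on growth signals included several of the large PKCi excesses. Of 17 measured quiescence genes 2 were higher with CSA and 6 with PKCi (median −0.51). Mxd4, which pairs with Max and represses Myc targets, read 3068 in mock cells, 268 with anti-TCR, 853 with CSA, 5412 with PKCi and 656 with Combo on an s-suffixed probe set, 6.35-fold higher with PKCi, and its other 2 bright probe sets reached up to −1.73. Pik3ip1, an inhibitor of PI3 kinase read on an i-suffixed probe set, was at 936, 122, 201, 1361 and 328 in the same order (6.77-fold). For both genes the PKCi array was the highest of the 5, above mock, and the anti-TCR array the lowest. The other 4 were Rbl2, a pocket protein that holds cells in rest (93.8 against 259), Ccng2 (422 against 1142), Slfn2 (i-suffixed, 186 against 528) and Foxp1 (i-suffixed, 1262 against 2675, with a second probe set at −0.99). Foxo1, which drives many resting T cell genes, was 2.08-fold higher with CSA. Il7r, a target of Foxo1, lay within 2-fold (816.5 against 1164).

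The list of PI3 kinase and mTOR brakes split with 2 of 10 higher with CSA and 4 with PKCi (median −0.28). Sesn1, an inhibitor of mTOR, read 95 against 352, and Pdcd4, an inhibitor of the helicase eIF4A, 388 against 916. Irs2, an insulin receptor substrate that is in the list but is not itself a brake, read 122 against 378. Pik3ip1 was the last of the 4. Trib1 and Trib2, pseudokinases that bind Akt or ubiquitin ligases, were 5.31-fold and at least 5.86-fold higher with CSA. Signalling through G proteins and cAMP was also mixed, with 5 of 19 higher with CSA and 1 with PKCi (median −0.23). Beside Rgs16, the acid-sensing receptor Gpr65 read 544.5 against 111, the prostaglandin receptor Ptger4 810.4 against 259, and Rgs3 861 against 295, with its second bright probe set at 0.83, inside 2-fold. The phosphodiesterase Pde3b passed 2-fold on an f-suffixed probe set (4771.5 against 2292), while another of its 4 bright probe sets gave −0.10. Pde4d was 2.10-fold higher with PKCi.

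A few genes stood higher in both arms than in the other 3 treatments. These were chosen after their values were seen. Ier5l, of the immediate early response family, read 5812 with CSA and 3103 with PKCi, against 338 in mock cells, 264.5 with anti-TCR alone and 412 with Combo. Rgs2 read 2207 and 1835 in the arms, against 707 in mock cells, 375 with anti-TCR and 608 with Combo. Ddit4, an inhibitor of mTOR, read 1249.7 and 1727, against 415, 301 and 346 in the same order. Crem, a cAMP-responsive factor read on an s-suffixed probe set, was at 722.5 and 1139, against 76.7, 252 and 315. Between the arms these 4 genes lay within 2-fold on the probe sets read, but a second bright probe set of Ier5l gave 1.59, past 2-fold with CSA.

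In sterol synthesis the calls lay on the CSA side. Of 21 measured cholesterol and fatty acid genes 9 were higher with CSA, 0 with PKCi, and the median was 0.53. Idi1, the isopentenyl diphosphate isomerase, read 194 in mock cells, 378 with anti-TCR, 892 with CSA, 52.8 with PKCi and 85.9 with Combo, 16.9-fold higher with CSA (log2 4.08). Hmgcs1, which makes HMG-CoA, read 335, 514, 1198, 127.5 and 341 in the same order (9.39-fold). For both the CSA array was the highest of the 5, above anti-TCR alone, and the PKCi array the lowest. Cyp51 (525 against 56.8, at least 7.55-fold) and Msmo1 (354.5 against 73.6) remove methyl groups from lanosterol, and Sqle (660.1 against 175) makes squalene epoxide. Insig1, which holds the sterol sensor in the endoplasmic reticulum and is itself a target of SREBP, read 655 against 126. Fdps, Sc5d and Pmvk were 3.04, 2.75 and 2.67-fold higher on suffixed probe sets, but the second probe set of Pmvk gave −1.82. Fasn and Acly of fatty acid synthesis lay within 2-fold, at log2 0.10 and −0.49.

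The Hmgcs1 start region is shown as an example of a sterol gene whose window holds the letters CACNCCAC, a core of the sterol regulatory element, here CACCCCAC in capitals 136 bases before the start. A match with C in the open place also contains the letters of the CACCC box, another factor's motif. The sequence is from RefSeq (GRCm38.p6, chr13:119690101-119690400, plus strand).
Hmgcs1: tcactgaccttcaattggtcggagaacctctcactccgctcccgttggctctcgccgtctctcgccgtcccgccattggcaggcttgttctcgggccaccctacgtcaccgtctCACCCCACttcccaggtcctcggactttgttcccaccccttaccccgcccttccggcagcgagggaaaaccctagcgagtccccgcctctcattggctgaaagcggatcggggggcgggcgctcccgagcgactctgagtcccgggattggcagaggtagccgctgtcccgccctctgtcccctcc

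Some nucleolar factors that build ribosomes were higher with CSA, and most lay within 2-fold. Of 28 measured nucleolar genes 10 were higher with CSA and 0 with PKCi (median 0.56). Nop58, a core protein of box C/D particles, read 505 against 101 (5.02-fold, f-suffixed), Rrs1, a ribosome assembly factor, 630.4 against 224, and Gar1, a protein of box H/ACA particles, 2547 against 992.5. The other 7 were Nop16 (f-suffixed), Brix1 (r-suffixed), Nhp2, Nolc1, Gnl3, Heatr1 and Dkc1, between 2.06 and 3.48-fold, and a second probe set of Nop16 gave 0.61. Among 18 cytosolic ribosomal protein genes 0 were called (median 0.19). Of 14 translation factors 5 were higher with CSA and 0 with PKCi (median 0.46), led by Eef1e1 (1266.5 against 340.4) and Eif1a (339.5 against 115). Eef2, also counted, read 1544 against 677, but its second probe set gave −0.28.

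Most amino acid, chaperone and redox genes lay within 2-fold, and the calls lay on the CSA side. Over all genes 6.49% were higher with CSA and 7.18% with PKCi. Of 18 measured Atf4 and amino acid response genes 5 were higher with CSA and 0 with PKCi (median 0.34): Chac1 (302 against 89.2), the amino acid transporter Slc7a5 (545 against 164), Psat1 of serine synthesis (273 against 95.1), Nars and Asns, whose second probe set gave 0.38. Of 19 heat shock and chaperone genes 3 were higher with CSA and 0 with PKCi (median 0.56), with the inducible Hspa1b at 489 against 141. In redox defence 2 of 18 were higher with CSA and 0 with PKCi: Srxn1, which repairs peroxiredoxins, read 1355 against 92.2 (14.7-fold), with 1602 under anti-TCR, 20.2 in mock cells and 175 with Combo, and Txnrd1, thioredoxin reductase, 503 against 227. Of 15 glycolysis genes 1 was higher with CSA and 0 with PKCi, the glucose transporter Slc2a3 (f-suffixed, 2.17-fold), with a median of 0.44.

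In the remaining lists few genes were called, beside 6.49% higher with CSA and 7.18% with PKCi over all genes. Of 15 measured DNA replication and G1-S genes 2 were higher with CSA, the cell cycle inhibitor Cdkn1a (657 against 148, 4.44-fold) and Cdc45 (r-suffixed, 239 against 96.3). The mitosis list had 1 gene of 29 measured, Cks2, at 284 against 579. Mcl1, a survival protein read on an f-suffixed probe set, was the 1 gene of 12 apoptosis regulators called, 2.04-fold higher with PKCi. Among 13 cathepsin and lysosome genes 1 was called each way, Ctsd with CSA and Cst3 with PKCi, and the median was −0.57. The respiratory chain list (23 measured) and the constitutive proteasome list (22 measured) had 0 called either way, with medians of 0.07 and 0.34. Of 8 housekeeping genes Actb was called, 3.21-fold higher with CSA on an f-suffixed probe set, while its further probe set gave −0.02, and the median was 0.29.

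**Figure D3:**
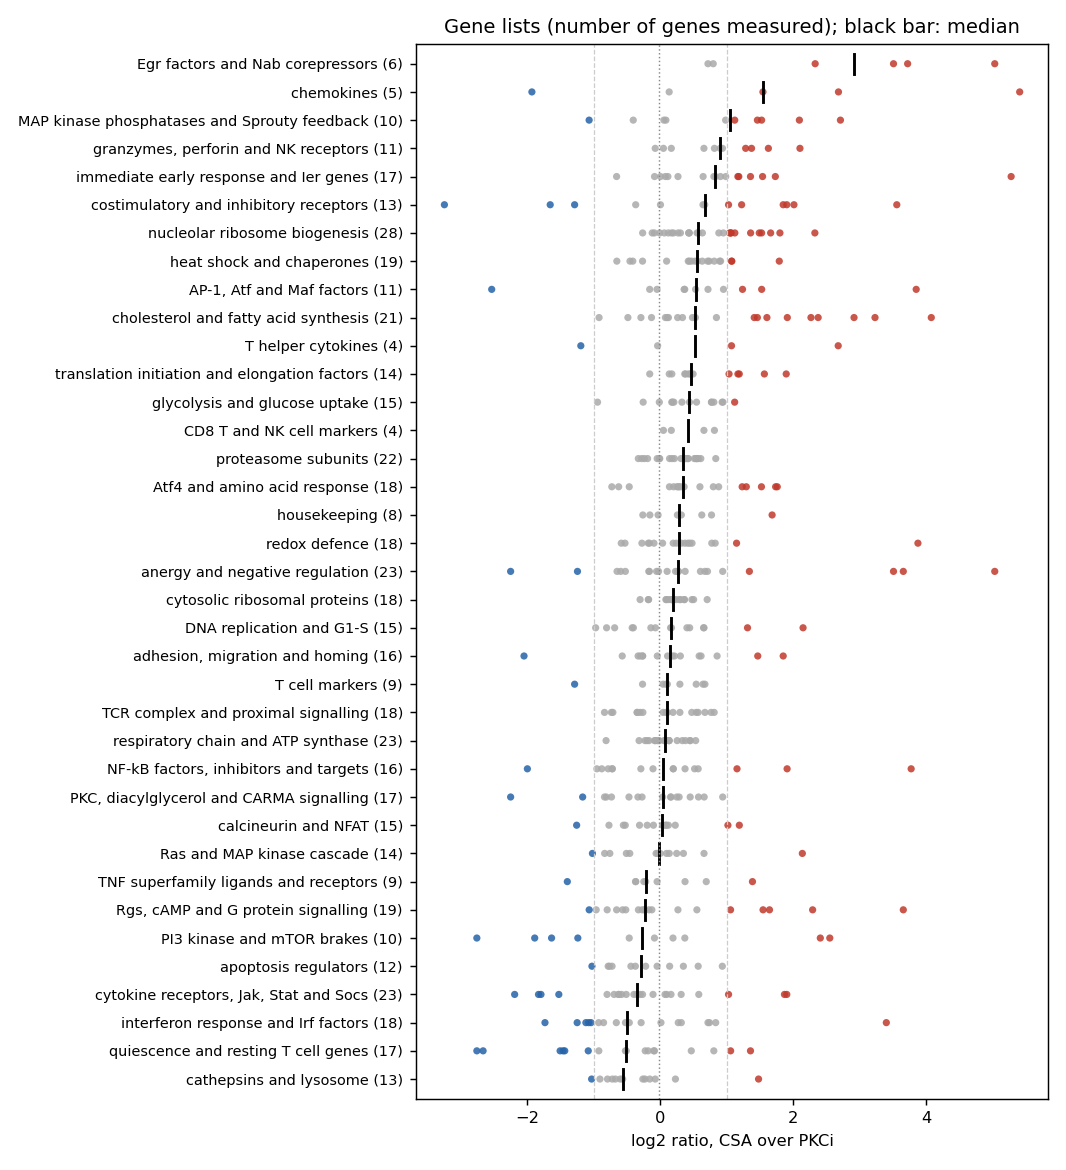
Log2 ratio of CSA over PKCi (x axis) for each measured member of the gene lists with 3 or more genes measured, 1 row per list and 1 point per gene, ordered by the median (black bar). Red points are at least 2-fold higher with CSA and blue points with PKCi, and the dotted line is the median of all measured genes; Egr and Nab genes top the order at 2.92, and quiescence genes stand near the foot at −0.51.

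Genes with the most extreme ratios outside the lists add other functions. Rhbdf2, an inactive rhomboid that escorts the protease that sheds TNF, read 1824 with CSA and 69.5 with PKCi (at least 26.2-fold), with 3736 under anti-TCR and 43.8 in mock cells. Penk, the precursor of enkephalins, read 8211 against 635.5 on an f-suffixed probe set (12.9-fold), with the lowest of its 3 bright probe sets at 1.06, and Gfod1 read 1652 against 153.5 (f-suffixed, 10.8-fold). On the PKCi side Galnt10, which starts O-linked glycans, read 89.2 against 672 (r-suffixed, 7.53-fold), and its CSA array was the low one, as mock, anti-TCR and Combo cells read 643, 901 and 695. C730049O14Rik, an unnamed transcript, read 454 against 2887. Chn1, a GTPase-activating protein for Rac that binds diacylglycerol, was at 43 against 333 (i-suffixed, at least 6.05-fold), and Hmg20b, a partner of the histone demethylase LSD1, at 51.1 against 410.0 (at least 5.90-fold). Vps37b of the ESCRT sorting machinery and B3galnt2, a glycosyltransferase, were bright with PKCi alone: Vps37b read 268 there and at most 47.6 in the other 4 treatments, and B3galnt2 271 against at most 126. Tmem225, Npb, Dusp28, Foxq1 and Ttc1 completed the 15, between 4.93 and at least 6.18-fold.

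The direct ratio was next read against classes from arrays that it does not use. In the first, genes were split by anti-TCR alone against mock, where 659 of 5803 measured genes were higher with anti-TCR (11.4%) and 808 lower (13.9%). Of the genes higher with anti-TCR 528 were measured in the pair, and 165 of them (31.25%) were higher with CSA against 11 (2.08%) with PKCi, with a median log2 ratio of 0.57. Of genes lower with anti-TCR 698 were measured, and 17 (2.44%) were higher with CSA against 189 (27.1%) with PKCi, with a median of −0.65. In the 3990 genes within 2-fold the shares were 3.43% and 3.03% and the median 0.02. Put the other way, 165 of the 367 genes higher with CSA (45.0%) belonged to the anti-TCR-raised class, and 189 of the 406 higher with PKCi (46.6%) to the anti-TCR-lowered class. A further 137 of the 367 and 121 of the 406 were within 2-fold between anti-TCR and mock.

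Of 79 genes at least 8-fold higher with anti-TCR than mock 55 were measured in the pair, and 42 of these (76.4%) were higher with CSA, 0 with PKCi and 13 within 2-fold. Members of the lists among the 13 were Tnfsf11, the ligand RANKL (569 with CSA, 352 with PKCi, 2435 with anti-TCR), Jak3 (s-suffixed, 1049.6, 938 and 2873), Socs1 (572, 544 and 1196), Fosl2, Junb, Gadd45b and Ier3. Fosl2 and Junb were past 2-fold with CSA on a further bright probe set, at 1.40 and 1.03. The other 24 of the 79 were under the minimum in both arms, among them the chemokines Xcl1 and Ccl1, the cytokines Csf2, Il13 and Il5, and Nr4a2, Spry1 and Lag3.

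The second split used Combo against anti-TCR alone, where 307 of 5621 genes were lower with Combo (5.46%) and 447 higher (7.95%). Both splits use the same anti-TCR arrays, with opposite sign, so they are not independent. A high anti-TCR value alone can place a gene in both the anti-TCR-raised and the Combo-lowered class. Of the Combo-lowered genes 215 were measured in the pair, with 97 (45.1%) higher with CSA, 4 (1.86%) higher with PKCi and a median of 0.87. Of the Combo-raised genes 402 were measured, with 10 (2.49%) higher with CSA, 138 (34.3%) higher with PKCi and a median of −0.81. Among 4531 genes within 2-fold the shares were 4.63% and 3.66%. Of the 367 genes higher with CSA 97 (26.4%) were lower with Combo than with anti-TCR alone and 210 (57.2%) within 2-fold, Egr2, Egr3, Nr4a1 and Rgs16 among the latter. Of the 406 genes higher with PKCi 138 (34.0%) were raised by Combo.

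**Figure D4:**
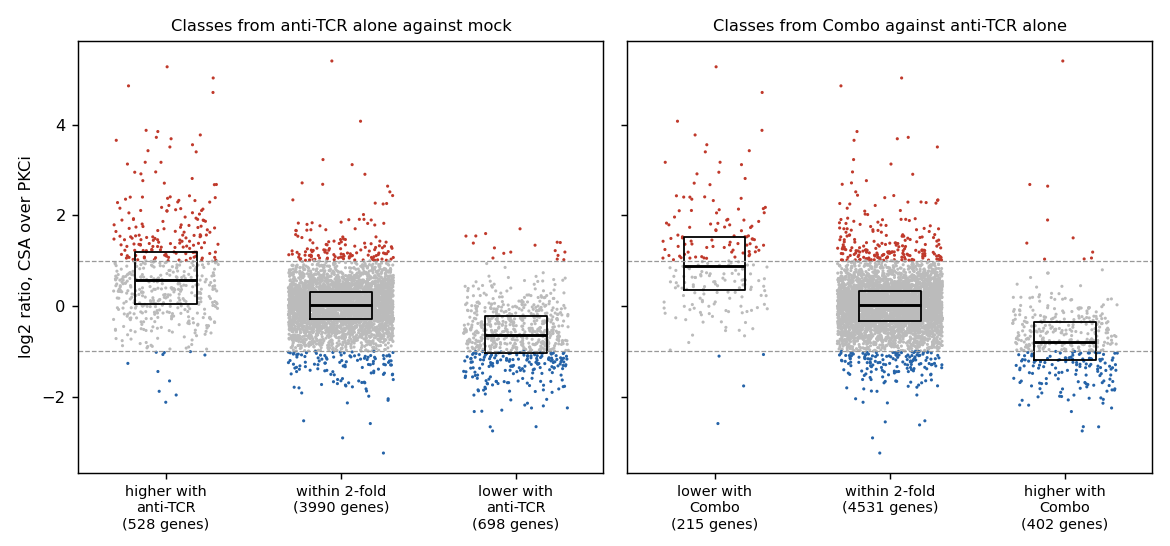
Log2 ratio of CSA over PKCi (y axis) for measured genes split by anti-TCR alone against mock (left) and by Combo against anti-TCR alone (right), 1 point per gene, with boxes from the lower to the upper quartile and a bar at the median. Points beyond the dashed 2-fold lines are coloured; the medians run from 0.57 through 0.02 to −0.65 on the left and start at 0.87 and end at −0.81 on the right.

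Promoter letters were counted in windows of 250 bases before to 50 after each RefSeq start, on both strands, for the 4624 of 5656 measured genes found in the RefSeq table (290 of those higher with CSA, 332 of those higher with PKCi). A gene counts when any of its windows holds the motif. The NFAT core TGGAAA was in 19.0% of genes higher with CSA, 18.7% of those higher with PKCi and 19.2% of all measured genes. AP-1 (TGANTCA) was in 5.17%, 6.02% and 5.67%, and the NF-kB consensus in 7.93%, 7.23% and 7.35%. These 3 motifs differed by less than 1 percentage point between those sets, but not in smaller ones: of the 51 genes with a window that were 4-fold or more higher with CSA 12 (23.5%) held NFAT, 6 (11.8%) AP-1 and 3 (5.88%) NF-kB. Of 128 genes higher with CSA that anti-TCR had raised 28 (21.9%) held NFAT, 5 (3.91%) AP-1 and 13 (10.2%) NF-kB. The Egr motif GCGNGGGCG was in 17.2%, 13.0% and 13.1%. The next 3 motifs were added after the values were seen. CRE (TGACGTNA) was in 7.93%, 3.92% and 5.84%, the sterol motif CACNCCAC in 12.8%, 5.72% and 7.63%, and the CArG box in 3.79%, 0.904% and 1.47%. The CArG genes higher with CSA numbered 11 and included Egr2, Dusp5 and Zfp36. Of the 7 sterol genes higher with CSA that have a window 2 held CACNCCAC, Hmgcs1 and Insig1. Over all 27025 genes of the table the shares were 23.9% for NFAT, 8.97% for AP-1, 6.31% for NF-kB, 6.27% for Egr, 3.36% for CRE, 7.12% for the sterol motif and 1.81% for CArG. NFAT and NF-kB letters can overlap, as can Egr letters and other GC-rich motifs. These counts describe letters and say nothing about binding.

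Genes read by more than 1 bright probe set give the only check on single values. Of 84 genes higher with CSA that had further bright probe sets 71 (84.5%) had the same sign in all of them and 36 (42.9%) were past 2-fold in all. Of 70 genes higher with PKCi 58 (82.9%) had the same sign and 22 (31.4%) were past 2-fold in all. Over all 1210 such genes 756 (62.5%) had the same sign throughout. Probe sets of the same RNA pool share that pool, so they show how far the reading varies and not how far cultures do.

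**Figure D5:**
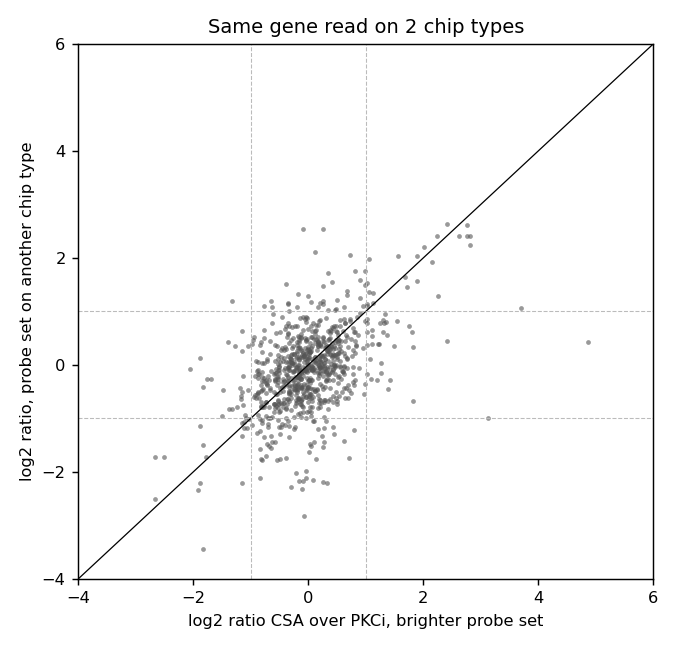
Log2 ratio of CSA over PKCi for 825 pairs of bright probe sets, both of 1 gene but from different chip types, the brighter on the x axis and the other on the y axis, with dashed 2-fold lines and the line of equal ratios. The cloud around 0 has a technical SD of 0.54 per reading, and the point far right near the x axis is Nr4a1, at 4.86 and 0.43.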

How the data were processed

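The authors deposited 1 table of linear array intensity values per array, for 12422 (A), 12411 (B) and 11868 (C) probe sets. Within each chip type the 2% trimmed means differed by at most 0.242%, so the arrays had been scaled to a common level; the method, the software and detection calls are not given in the sources used here. Groups were taken from the array titles. Of 36701 probe sets 29131 carried 1 gene symbol in the platform annotation, 724 several and 6846 none; the last 2 kinds entered no gene count. A gene was read from the probe set brightest on average in all 5 treatments, so that the pair did not choose it. A letter before "at" in 8897 probe set names (r, i, f, s or g) marks shared sequence or a broken selection rule. Genes named are the 15 highest and 15 lowest ratios among those whose further bright probe sets had the same sign, members of 42 gene lists, and those marked in the text as chosen after their values were seen. The comparison, the gene lists and the rules were chosen with earlier results of these data known. Steps ran in Python 3.11.15 (pandas 2.3.3, numpy 2.4.6, scipy 1.17.1, matplotlib 3.10.9) and were tested on simulated data. Alternatives were quantile normalization, median scaling, 0.5 and 2 times the floor, a minimum of 8 times the floor, the mean of bright probe sets, leaving out suffixed probe sets, a 3-fold limit, and each chip type alone.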

Additional observations from a re-analysis of the deposited data

How the results depend on the processing

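No paired analysis was possible because each treatment has 1 array on a chip type and probe sets differ between chip types. Against 367 genes higher with CSA and 406 with PKCi, a minimum of 8 times the floor left 227 and 227, a 3-fold limit 134 and 112, chip type A alone 175 and 185, B alone 149 and 161, and C alone 97 and 145; each of these tests fewer genes or asks for a larger ratio. Quantile normalization gave 374 and 411, median scaling 347 and 426, and the floor changes left both counts as they were. The share of anti-TCR-raised genes higher with CSA (31.25%) was 26.0% at 3-fold and 26.8% on chip type C. The share of anti-TCR-lowered genes higher with PKCi (27.1%) was 13.0% at 3-fold, 22.2% on A, 30.5% on B and 33.7% on C. The share of Combo-raised genes higher with PKCi (34.3%) was 19.1% at 3-fold, and that of Combo-lowered genes higher with CSA (45.1%) was 29.0% on C. Of 144 genes followed through the 11 alternatives 142 kept their sign wherever they were measured and 127 stayed past 2-fold. Among these alternatives the floor changes, the higher minimum and the 3-fold limit could alter neither a sign nor whether a gene stayed past 2-fold. A chip type alone, or leaving out suffixed probe sets, reads the same probe set again wherever the one used is kept. Much of this constancy was therefore fixed in advance. Those that turned were Pmvk, −0.20 as the mean of its bright probe sets, and Eef2, −0.28 on chip type A alone. Of 37 list medians 25 kept their sign; that of the PI3 kinase and mTOR brakes ranged from −0.85 to 1.27 and that of the NF-kB list from −0.51 to 0.57, while sterol synthesis stayed between 0.12 and 1.46 and nucleolar genes between 0.30 and 1.06.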

Other observations

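Probe sets without a gene symbol were called at shares close to or below those of all probe sets. Of 6846 such probe sets 1086 reached the minimum, and 73 (6.72%) were higher with CSA and 59 (5.43%) with PKCi. Over all 8598 bright probe sets the shares were 6.84% and 7.32%. At 4-fold or more the counts were 17 and 8, against 123 and 69 over all bright probe sets. Of 724 probe sets with several symbols 237 reached the minimum, and 16 (6.75%) were higher with CSA and 12 (5.06%) with PKCi. They are given as counts because the annotation used here pairs them with no single gene.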
